A study of Mus musculus with 15 samples.

Results

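The matrix metalloproteinases (MMPs), the tissue inhibitors that block them (TIMPs) and the ADAMTS proteases were followed in normal mouse skin and in full-thickness wounds that had received printed beads. Members were taken by gene symbol alone, as every Mmp, Timp or Adamts gene with a number, a rule that uses no measured value, although these families were picked with earlier results of these data known. This gave 45 of the 18929 genes in the table, namely 22 Mmp, 4 Timp and 19 Adamts genes. RNA was sequenced from 15 skin samples of WT balb/c mice, 3 in each of 5 groups. Per the methods the mice were male and 4 to 6 weeks old, and a round wound of 10 mm or 15 mm was cut in the dorsal skin. The acellular groups received Matrigel beads without cells. The HDB groups received high-density beads laden with human mesenchymal stem cells (MSCs) that were printed among acellular beads, so that both arms carried Matrigel. Normal skin came from normally growing skin, with no wound or bead named in its label. For the sequenced skin the methods state 4 weeks of implantation, although they let the wound experiment end on day 21. The table holds mouse genes, and transcripts of the implanted human cells were not analysed here.

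MMPs are zinc enzymes that cut collagens, elastin, laminins and other matrix proteins, and most are made as inactive precursors. TIMPs are small secreted proteins that block the active site of MMPs, and TIMP3 also blocks several ADAMTS enzymes. ADAMTS proteases are secreted relatives of the membrane ADAMs, of which some cut aggrecan and versican and others trim procollagen before it forms fibrils. In skin wounds these enzymes are known from migrating keratinocytes, fibroblasts, macrophages and neutrophils, and they take part in replacing the provisional matrix by scar.

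Total estimated counts per sample lay between 15840551 and 18404188. Levels are given as counts scaled to the TMM-normalized library size (CPM), and 3 counts in a library correspond to 0.159 to 0.211 CPM. The skin label was borne out by its markers, as 6 keratins of basal and wound keratinocytes summed to 5421 to 7459 CPM in normal and to 7552 to 20754 CPM in wound skin. Muscle was present too, as 8 skeletal muscle markers summed to 46304 to 55719 CPM in normal and to 617 to 33731 CPM in wound skin. Acellular 15 mm replicate 3 (617 CPM) and HDB 10 mm replicate 2 (877 CPM) had the lowest muscle sums of their groups. One library stood apart in hair shaft markers, since these 8 summed to 8724 CPM in acellular 15 mm replicate 1, to 869 CPM in replicate 2 of that group and to 6.04 to 451 CPM in the remaining 13 samples. Among the 12 wound samples this library held the lowest level of 18 of the 40 members tested and of 24.9% of all genes tested. In bulk tissue, fewer cells of a type and less RNA per cell cannot be told apart. Nothing in the labels says that samples of a group came from separate animals, so that p-values measure the spread between these samples, which may be technical.

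Of the 45 members, 40 passed the filter on low counts, and the remaining 5 were close to absent. Mmp7 (matrilysin) reached 1 count in its highest sample, Mmp21 reached 2, Mmp20 (enamelysin, known from teeth) reached 3, Mmp1b (an interstitial collagenase) reached 7 and Mmp8 (neutrophil collagenase) reached 18.

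To compare genes with each other, levels were also expressed per transcript length as TPM, the share of a gene among all transcripts of a sample. Mmp14, the membrane-anchored MT1-MMP that activates the MMP2 precursor, had the highest mean of the 45 members over the 15 samples (495 TPM). Mmp2 (gelatinase A) followed at 259 TPM, and Timp2, which takes part in this activation as well as blocking MMPs, at 196 TPM. Timp3, an inhibitor held in the matrix, had 172 TPM, Mmp11 (stromelysin 3) 164 TPM and Adamts2, a procollagen N-propeptidase, 88.5 TPM. With the longest transcript of each gene in place of the median length, Mmp14 kept the first rank (272 TPM) and Timp2 (265 TPM) passed Mmp2 (193 TPM), while Adamts2 fell to 32.0 TPM. These ranks rest on means over all 5 groups. Mmp14 was first in each of the 4 wound groups under both lengths, whereas in normal skin Timp2 was first, at 298 against 278 TPM with the median and 396 against 149 TPM with the longest transcript. The next ranks varied, as with the median length Timp3 exceeded Mmp2 and Timp2 in acellular 10 mm skin (139, 136 and 107 TPM) and Mmp11 exceeded Timp2 in HDB 15 mm skin (403 and 253 TPM). With the longest transcript Timp3, Mmp2 and Timp2 had 135, 101 and 144 TPM in acellular 10 mm skin, so that Timp2 exceeded Timp3. In HDB 15 mm skin Mmp11 then lay below Timp2 (289 and 339 TPM).

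**Figure D1:**
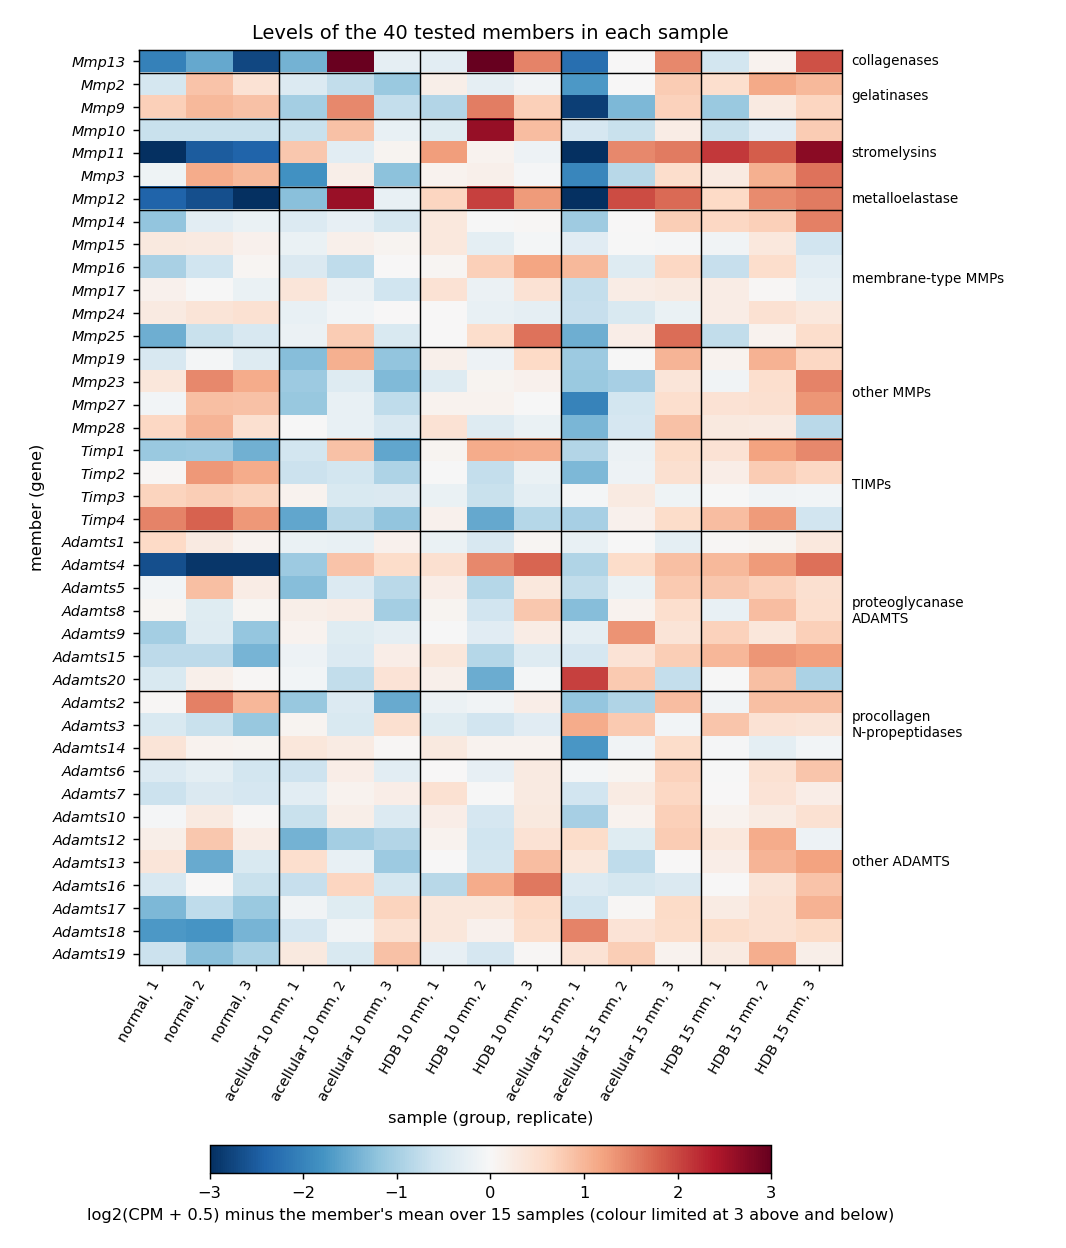
Levels of the 40 tested members (vertical, grouped by role) in each of the 15 samples (horizontal, 3 per group), as log2(CPM + 0.5) minus the member's own mean over the samples, with colours limited to 3 above and below. Mmp11, Mmp12, Mmp13 and Adamts4 are low in the 3 normal samples, Timp4 is high there, and acellular 15 mm replicate 1 is the lowest wound sample for 18 members.

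Wound skin was first set against normal skin, which asks how far the protease and inhibitor transcripts lay from the level of unwounded skin when sampled. All wound groups had also received Matrigel beads, so that wounding and beads cannot be told apart in these comparisons. These 4 comparisons share the 3 normal samples and are therefore not independent of each other. A member was called at an adjusted p under 0.05 of edgeR's quasi-likelihood test. In acellular 10 mm skin 6 of 40 members were higher and 7 lower, while 9.77% and 10.6% of the 15369 genes tested were higher and lower. In HDB 10 mm skin 6 were higher and 3 lower, beside 6.10% and 6.23% of all genes. In acellular 15 mm skin 9 were higher and 5 lower, beside 17.6% and 12.6%. In HDB 15 mm skin 10 were higher and 1 lower, beside 2.67% and 2.51%. Separation from normal skin without overlap was common. In acellular 10 mm, HDB 10 mm, acellular 15 mm and HDB 15 mm skin, 4475, 3951, 3460 and 3656 of the 15369 genes had every wound sample above every normal sample. In the same order 4181, 3600, 3306 and 3473 genes had every wound sample below. Of the 40 members 11, 15, 9 and 15 lay above and 10, 7, 6 and 5 below. The median log2 fold change of the 40 members was 0.06 for acellular 10 mm, 0.41 for HDB 10 mm, 0.26 for acellular 15 mm and 0.56 for HDB 15 mm, where the medians of all genes were 0.03, 0.02, 0.06 and 0.02. These medians were not steady, with -0.04 to 0.19, 0.20 to 0.65, -0.15 to 0.61 and 0.38 to 0.88 when single samples were left out. The one for acellular 10 mm turned to -0.04 without its replicate 2 and to -0.01 without normal replicate 2, and the one for acellular 15 mm to -0.15 without its replicate 3, against 0.36 without its replicate 1. With genes of a mean of at least 50 counts they were -0.06, -0.02, 0.03 and 0.36. By family, 2, 2, 2 and 2 of 17 MMPs, 0, 1, 0 and 1 of 4 TIMPs and 4, 3, 7 and 7 of 19 ADAMTS genes were higher in that order, and 2, 1, 2 and 0 MMPs, 3, 2, 2 and 1 TIMPs and 2, 0, 1 and 0 ADAMTS genes were lower.

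Of the 14 calls in acellular 15 mm skin, 11 held without replicate 1 of that group, with log2 fold changes of 4.17 (Mmp11), 4.84 (Mmp12), 4.28 (Adamts4), 1.80 (Adamts9), 1.58 (Adamts15), 1.74 (Adamts17), 2.83 (Adamts18), 2.01 (Adamts19), 1.83 (Adamts3), -0.61 (Timp3) and -0.73 (Mmp24). Those of Timp4 (-1.18, edgeR adjusted p = 0.124), Mmp23 (-1.23, adjusted p = 0.119) and Adamts1 (-0.49, adjusted p = 0.0881) were lost without it. When acellular 15 mm and normal skin were fitted alone, edgeR called 3 of the 14, Adamts4, Adamts18 and Adamts19, and the other 11, Timp3, Adamts9 and Adamts3 among them, had adjusted p-values of 0.0614 to 0.114. Of all genes 30.2% were called with all samples, 23.0% without replicate 1 and 6.57% in the fit of the 2 groups alone.

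Markers of other cell types also differed between wound and normal skin. All 6 markers of basal and wound keratinocytes were above 0 in the 4 wound groups, with, in the order used above, 4, 2, 2 and 2 called higher and medians of 1.71, 1.00, 1.47 and 1.62 on the log2 scale. The 8 hair shaft markers were above 0 as well, with 2, 0, 8 and 1 called higher. Of the 5 suprabasal keratinocyte markers 0, 0, 3 and 0 were called lower (medians -0.37, -0.55, -1.04 and -0.70). The 8 skeletal muscle markers were below 0 in the 4 wound groups, with 0, 0, 1 and 0 called lower (-1.76, -1.85, -2.83 and -1.55). Of 3 bone markers tested, Sp7 was called higher in the 4 wound groups. Of 5 neutrophil markers tested, 0 were called (0.53, 1.62, 0.21 and -0.15). Of the 6 fibroblast markers 4, 0, 1 and 0 were called lower (medians -1.55, -0.53, -0.63 and -0.04), of the 8 macrophage markers 7, 4, 5 and 0 (-2.06, -1.61, -1.60 and -0.77), of the 6 endothelial markers 6, 4, 6 and 0 (-2.09, -1.40, -1.48 and -0.96), of the 5 adipocyte markers 5, 0, 0 and 0 (-2.97, -1.80, -0.68 and -0.35) and of the 5 mast cell markers 4, 1, 1 and 0 (-2.71, -1.46, -1.18 and -0.23). The part of these cell types in the differences of members and matrix genes from normal skin was not tested.

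Calls that held in each fit with 1 sample left out came from ADAMTS proteases, Timp3 and a few others. Adamts4 (Entrez 240913, GRCm38.p6 chr1:171250129-171262267), an aggrecanase that also cuts versican, was nearly silent in normal skin, with 0.843, 0.603 and 0.604 CPM in the 3 samples. It stood at 3.42, 14.5 and 11.7 CPM in acellular 10 mm and at 3.97, 11.7 and 15.0 CPM in acellular 15 mm wounds. With HDB it stood at 11.1, 22.1 and 27.3 CPM at 10 mm and at 15.9, 19.5 and 25.5 CPM at 15 mm. Every wound sample thus exceeded every normal sample. The log2 fold change was 3.84 for acellular 10 mm (standard error 0.638, edgeR adjusted p = 0.00545), 4.87 for HDB 10 mm (0.655, edgeR adjusted p = 0.00351), 3.89 for acellular 15 mm (0.638, edgeR adjusted p = 0.00358) and 4.88 for HDB 15 mm (0.655, edgeR adjusted p = 0.00623). Each of these calls held in 6 of 6 fits with 1 sample left out.

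Adamts18, a protease of the family with few known substrates, had 0.492, 0.469 and 0.738 CPM in normal skin. It rose to 1.83, 2.53 and 4.03 CPM in acellular 10 mm and 3.67, 3.07 and 4.22 CPM in HDB 10 mm wounds. At 15 mm it had 8.73, 3.85 and 4.30 CPM in acellular and 4.34, 4.00 and 4.35 CPM in HDB wounds. No wound sample overlapped normal skin, and the highest value belonged to acellular 15 mm replicate 1, the library rich in hair shaft transcripts. The log2 fold changes were 2.29, 2.67, 3.30 and 2.88 (acellular 10 mm, HDB 10 mm, acellular 15 mm and HDB 15 mm, an order kept below), with edgeR adjusted p-values of 0.00622, 0.00690, 0.00204 and 0.00646. Each call held in 6 of 6 fits with 1 sample left out.

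Adamts17, which is linked to the fibrillin network, was also higher in the 4 wound groups, from 0.773, 1.41 and 1.01 CPM in normal skin to group means of 2.93 to 4.49 CPM. Its log2 fold changes were 1.51, 1.86, 1.46 and 2.07 (edgeR adjusted p = 0.0293, 0.0223, 0.0250 and 0.0288), but these calls held in 1, 2, 3 and 1 of 6 fits with 1 sample left out, with log2 fold changes of 1.09 to 1.75, 1.68 to 2.11, 1.06 to 1.74 and 1.78 to 2.33 over the alternatives. Adamts19, at 0.773, 0.335 and 0.537 CPM in normal skin, was called higher in acellular 10 mm, acellular 15 mm and HDB 15 mm wounds, with log2 fold changes of 1.87, 2.01 and 2.16 (edgeR adjusted p = 0.0248, 0.0134 and 0.0355, held in 2, 5 and 0 of 6 fits). In HDB 10 mm skin its log2 fold change was 1.14 (adjusted p = 0.144). Both genes were low, at no more than 6.16 and 3.76 CPM in any sample, and no wound sample overlapped normal skin for either. Adamts10, the most abundant of these remaining ADAMTS genes by CPM, also tied to fibrillin, was called in none of the 4 comparisons, at 46.5 to 57.4 CPM in normal and 23.7 to 79.2 CPM in wound skin.

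Among the 7 proteoglycanase ADAMTS genes, 1, 1, 3 and 3 were called higher and 0, 0, 1 and 0 lower in the 4 wound groups, beside 9.77%, 6.10%, 17.6% and 2.67% of all genes higher and 10.6%, 6.23%, 12.6% and 2.51% lower. Besides Adamts4 the higher ones were Adamts9 and Adamts15, versican-cutting proteases that fell outside the naming rule and were picked after their values were seen. Adamts15 had 16.5, 16.5 and 10.7 CPM in normal skin, 20.1, 38.6 and 48.7 CPM in acellular 15 mm skin (log2 fold change 1.30, edgeR adjusted p = 0.0172) and 57.9, 73.2 and 68.5 CPM in HDB 15 mm skin (2.19, edgeR adjusted p = 0.0131). The calls held in 5 and 3 of 6 fits with 1 sample left out, with log2 fold changes of 1.01 to 1.58 and 2.02 to 2.30. For Adamts9 normal skin averaged 15.5 ± 4.74 CPM (SD, n = 3), acellular 15 mm skin 43.6 ± 25.2 CPM and HDB 15 mm skin 42.1 ± 6.05 CPM. Its log2 fold changes were 1.49 and 1.44 (edgeR adjusted p = 0.0113 and 0.0398), held in 6 and 1 of 6 fits, the former lost with its 2 groups fitted alone (adjusted p = 0.0800). Adamts1, the most abundant proteoglycanase by mean CPM over the 15 samples, moved the other way, at 110, 87.3 and 77.7 CPM in normal and 61.8, 71.8 and 59.2 CPM in acellular 15 mm skin (log2 fold change -0.51, edgeR adjusted p = 0.0389). This call was lost without acellular 15 mm replicate 1 or 3 or normal replicate 1 or 2, with values of -0.63 to -0.36 over the alternatives. In HDB 15 mm skin the mean of Adamts5 (95.5 CPM) exceeded that of Adamts1 (80.1 CPM).

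The 3 procollagen N-propeptidases did not share a direction. Adamts2, the most abundant of them, fell from 81.4, 229 and 159 CPM in normal to 35.9, 60.2 and 27.6 CPM in acellular 10 mm skin (log2 fold change -1.92, standard error 0.552, edgeR adjusted p = 0.0306). The groups did not overlap, yet the call was lost without acellular 10 mm replicate 1 or 3 or normal replicate 2 or 3 (-2.30 to -1.56). Adamts3 was higher at 15 mm, with log2 fold changes of 2.17 for acellular and 2.02 for HDB skin (edgeR adjusted p = 0.0107 and 0.0429), at 0.201 to 2.83 CPM over all samples. These calls held in 6 and 1 of 6 fits with 1 sample left out, and the acellular one was lost with its 2 groups fitted alone (adjusted p = 0.0664). Adamts14 was called in none of the 4 comparisons and ranged from 8.73 to 45.5 CPM. Adamts12, a protease of cartilage and stroma, was lower in acellular 10 mm skin (log2 fold change -1.58, edgeR adjusted p = 0.0187) and lost the call without acellular 10 mm replicate 1 or normal replicate 2 (-1.70 to -1.35). The 6 fibroblast markers summed to 539 to 853 CPM in this group and to 1388 to 3320 CPM in normal skin, and their part in the values of Adamts2, Adamts12 and the other members lower in this group was not tested.

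**Figure D2:**
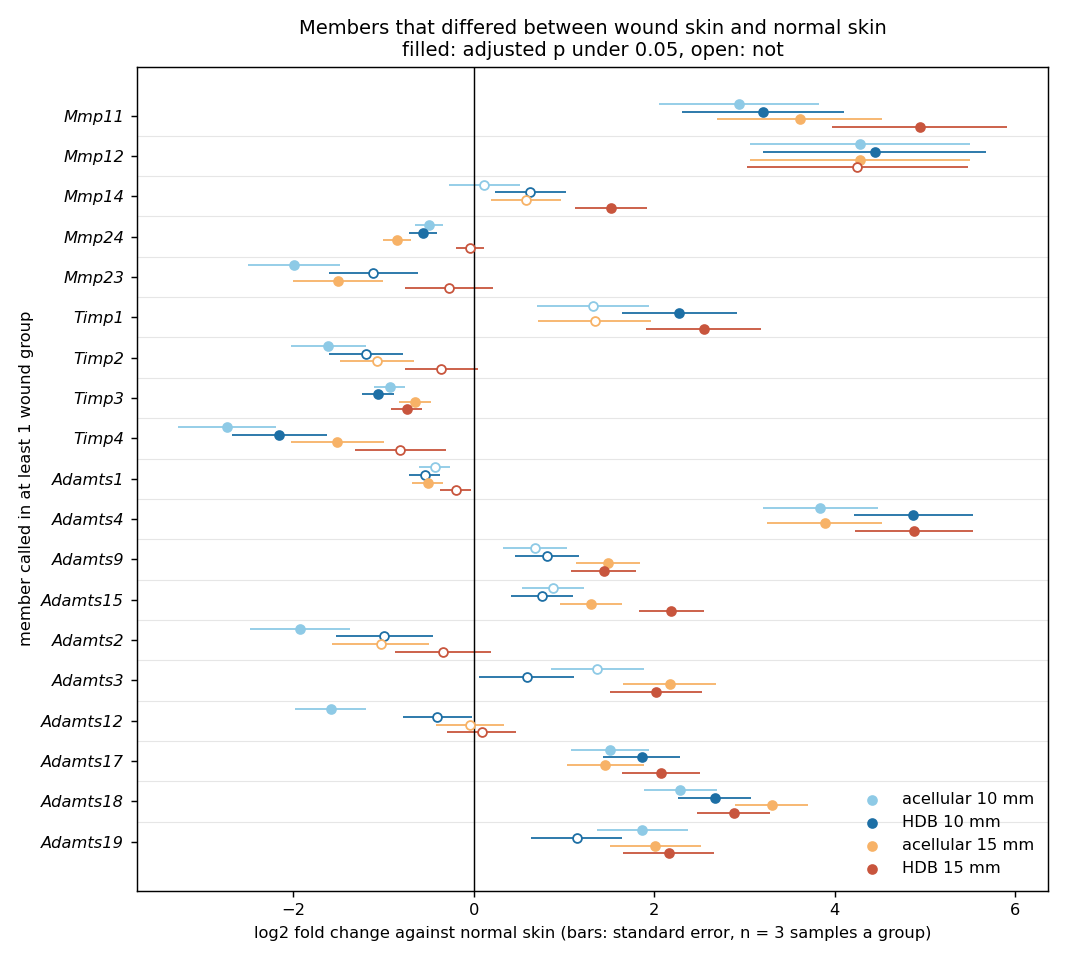
Log2 fold change of each wound group against normal skin (horizontal, bars show the standard error, n = 3 samples a group) for the 19 members called in at least 1 of the 4 comparisons (vertical). Filled points passed an adjusted p of 0.05 and open points did not. Adamts4, Adamts17, Adamts18 and Mmp11 have filled points above 0 and Timp3 has filled points below 0 in all 4 wound groups.

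Among the MMPs, Mmp11 (stromelysin 3, chr10:75923221-75932502), known from stromal fibroblasts at sites of remodelling, was called in the 4 wound groups. It stood at 6.74, 9.71 and 10.3 CPM in normal skin, at 100, 45.5 and 60.4 CPM in acellular 10 mm and at 136, 60.9 and 51.1 CPM in HDB 10 mm wounds. HDB 15 mm wounds had 248, 201 and 374 CPM. In acellular 15 mm wounds replicates 2 and 3 had 155 and 168 CPM, whereas replicate 1 had 4.42 CPM, below normal skin. The log2 fold changes were 2.94, 3.21, 3.61 and 4.94 (standard errors 0.889, 0.897, 0.912 and 0.967, edgeR adjusted p = 0.0367, 0.0391, 0.0138 and 0.0235). The acellular 15 mm call held in 5 of 6 fits with 1 sample left out and was lost without normal replicate 1 (3.15 to 4.17), and the HDB 15 mm call held in 1 of 6 (4.65 to 5.12). Neither 10 mm call held in any of its 6 fits, with values of 2.57 to 3.17 and 2.67 to 3.46. Mmp11 shares 155 exon bases with Chchd10 on the opposite strand, a gene at 32.4 to 242 CPM. The strand setting of the counting is not given in the sources used here, so that reads of overlapping genes on opposite strands cannot be told apart.

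Mmp12, the macrophage metalloelastase, stood at 9.48, 7.97 and 2.35 CPM in normal skin. Its 10 mm values were very uneven, at 21.9, 318 and 45.1 CPM in acellular and 82.6, 220 and 127 CPM in HDB wounds. At 15 mm it had 5.84, 206 and 173 CPM in acellular and 80.0, 141 and 155 CPM in HDB wounds. Except for acellular 15 mm replicate 1, every wound sample exceeded the 3 normal samples. The log2 fold changes were 4.28, 4.44 and 4.28 in the first 3 groups (edgeR adjusted p = 0.0295, 0.0376 and 0.0220) and 4.25 in HDB 15 mm skin, where it did not pass (adjusted p = 0.0597, 0.00204 with DESeq2 and 0.00740 in edgeR with its 2 groups fitted alone). Without acellular 10 mm replicate 2 the acellular 10 mm value was 2.34 and was not called, and the 3 calls held in 2, 1 and 3 of 6 fits. The 8 macrophage markers summed to 291 to 797 CPM in normal and to 70.0 to 406 CPM in wound skin. In acellular 10 mm replicate 2, the sample highest in Mmp12, they summed to 198 CPM. The part of macrophages in the Mmp12 values was not tested.

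Mmp13, an interstitial collagenase, had 0.422, 0.803 and 0.0671 CPM in normal skin, 0.913, 28.9 and 2.63 CPM in acellular 10 mm and 2.49, 32.8 and 10.1 CPM in HDB 10 mm wounds. At 15 mm it had 0.283, 3.27 and 9.72 CPM in acellular and 2.06, 3.52 and 13.6 CPM in HDB wounds. Replicate 2 of both 10 mm groups was far above the others. The log2 fold changes of 4.63, 5.11, 3.34 and 3.87 did not pass edgeR's test (adjusted p = 0.0609, 0.0608, 0.125 and 0.149), whereas DESeq2 called each of them (adjusted p = 0.00609, 0.00303, 0.0444 and 0.0373). Over the alternatives they ranged over 2.02 to 5.43, 3.86 to 5.94, 2.02 to 4.17 and 2.67 to 4.70, with 2.02 in acellular 10 mm skin without its replicate 2, 2.02 in acellular 15 mm skin without its replicate 3 and an edgeR call in HDB 10 mm skin without its replicate 1 (5.64, adjusted p = 0.0392). With the 2 compared groups fitted alone edgeR called Mmp13 in acellular 10 mm, HDB 10 mm and HDB 15 mm skin (adjusted p = 0.0434, 0.0345 and 0.0320), but not in acellular 15 mm skin (0.128). Mmp9 (gelatinase B), which neutrophils store, was highest in the same libraries, at 22.2 and 23.8 CPM, and was called in none of the 4 comparisons. The 10 neutrophil markers, of which 5 were tested, summed to 235 CPM in HDB 10 mm replicate 2, with S100a9 at 123 CPM and Ly6g, a defining marker, at 0 CPM. They summed to 50.7 CPM in acellular 10 mm replicate 2, to 14.4 to 18.6 CPM in normal skin and to 12.7 to 26.9 CPM and 15.5 to 16.6 CPM in the 15 mm groups. Their part in the Mmp13 and Mmp9 values was not tested.

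Mmp13, Mmp12, Mmp1b, Mmp3, Mmp10, Mmp8, Mmp27, Mmp20 and Mmp7 lie side by side on chromosome 9, within chr9:7272514-7699585 (GRCm38.p6). Of these 9 genes 5 were tested, and Mmp12 was the one called in a comparison with normal skin. Promoters are shown because some MMP genes of this cluster are known targets of AP-1, the Fos and Jun factor that binds the palindrome TGANTCA, where N is any base. RefSeq promoter windows of 300 bases (250 before to 50 after a start site, GRCm38.p6) matched 31 of the 45 members. TGANTCA was found in windows of 7 of the 9 cluster genes and 0 of the 22 other members matched, against 7.81% of all 32851 windows and 8.97% of their 27025 genes. The letters TATAAA, searched on both strands, occurred in 8 of 9 cluster genes and 2 of 22 others, against 13.6% of windows and 15.7% of genes. A match describes letters, and binding was not measured. The windows of 4 cluster genes follow, at chr9:7272264-7272563 (Mmp13), chr9:7347124-7347423 (Mmp12, second start), chr9:7445572-7445871 (Mmp3) and chr9:7502092-7502391 (Mmp10), with that of Mmp24 at chr2:155775092-155775391 for contrast. All are on the plus strand, and capitals mark TGANTCA.
Mmp13: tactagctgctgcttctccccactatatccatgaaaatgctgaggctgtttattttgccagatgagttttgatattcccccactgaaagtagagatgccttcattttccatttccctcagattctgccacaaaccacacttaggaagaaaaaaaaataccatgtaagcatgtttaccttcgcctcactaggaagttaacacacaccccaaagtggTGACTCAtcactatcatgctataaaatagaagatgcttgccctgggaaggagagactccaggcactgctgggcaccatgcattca
Mmp12: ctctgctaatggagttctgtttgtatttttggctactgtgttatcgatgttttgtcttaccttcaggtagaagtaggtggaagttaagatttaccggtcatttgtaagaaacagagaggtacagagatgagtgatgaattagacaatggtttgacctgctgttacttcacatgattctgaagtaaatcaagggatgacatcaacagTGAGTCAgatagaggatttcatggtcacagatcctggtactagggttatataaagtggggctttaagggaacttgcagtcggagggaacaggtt
Mmp3: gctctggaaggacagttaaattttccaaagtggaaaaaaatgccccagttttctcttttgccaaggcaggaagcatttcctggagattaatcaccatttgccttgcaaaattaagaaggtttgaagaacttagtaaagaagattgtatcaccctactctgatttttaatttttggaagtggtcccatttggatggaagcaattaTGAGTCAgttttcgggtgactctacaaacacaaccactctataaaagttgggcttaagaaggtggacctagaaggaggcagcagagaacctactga
Mmp10: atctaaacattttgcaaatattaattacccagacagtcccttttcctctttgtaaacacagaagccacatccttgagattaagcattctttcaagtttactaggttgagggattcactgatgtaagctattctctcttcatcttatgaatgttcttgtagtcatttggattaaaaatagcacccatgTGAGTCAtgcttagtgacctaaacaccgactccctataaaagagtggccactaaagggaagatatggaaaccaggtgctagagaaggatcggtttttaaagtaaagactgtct
Mmp24: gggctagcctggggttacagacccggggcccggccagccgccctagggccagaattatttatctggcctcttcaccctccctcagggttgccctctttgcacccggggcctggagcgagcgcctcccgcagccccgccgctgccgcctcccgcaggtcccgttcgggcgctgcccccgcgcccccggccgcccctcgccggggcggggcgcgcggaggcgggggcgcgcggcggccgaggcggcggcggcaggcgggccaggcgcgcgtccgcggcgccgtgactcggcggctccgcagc

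The motif begins 35 bases before the start in Mmp13, 44 in Mmp12, 46 in Mmp3 and 63 in Mmp10. Mmp24, the member called between HDB and acellular skin, has 80.0% G and C in its window, against 37.7% to 43.7% in these 4. The other Mmp12 start, at chr9:7344147-7344446, has no TGANTCA.

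Within the cluster, Mmp10 (stromelysin 2), a marker of migrating keratinocytes, was at 0 counts in the 3 normal samples and highest in HDB 10 mm replicate 2, at 4.30 CPM. Mmp3 (stromelysin 1) was present in normal skin at 37.1, 88.7 and 80.9 CPM and was called in none of the 4 comparisons. Of the membrane-type MMPs, Mmp14 was higher in HDB 15 mm skin, at 486, 512 and 898 CPM against 137, 253 and 271 CPM in normal skin (log2 fold change 1.52, standard error 0.398, edgeR adjusted p = 0.0480). The groups did not overlap, and the call held in 1 of 6 fits with 1 sample left out (1.18 to 1.71). Mmp23, a small membrane-tethered MMP, was lower in both acellular groups, with log2 fold changes of -1.99 at 10 mm and -1.50 at 15 mm (edgeR adjusted p = 0.0207 and 0.0404, held in 2 and 2 of 6 fits, -2.34 to -1.73 and -2.19 to -1.22). Mmp2 was called in none of the 4 comparisons, at 146, 383 and 285 CPM in normal skin. Mmp19, which among the remaining MMPs had the highest mean CPM over the 15 samples, was not called either, at 20.1, 27.4 and 21.6 CPM in normal and 11.5 to 59.8 CPM in wound skin, and it shares 789 exon bases with Tmem198b on the opposite strand. In normal skin the means of Mmp28 (26.4 CPM) and Mmp23 (26.2 CPM) exceeded that of Mmp19 (23.0 CPM).

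**Figure D3:**
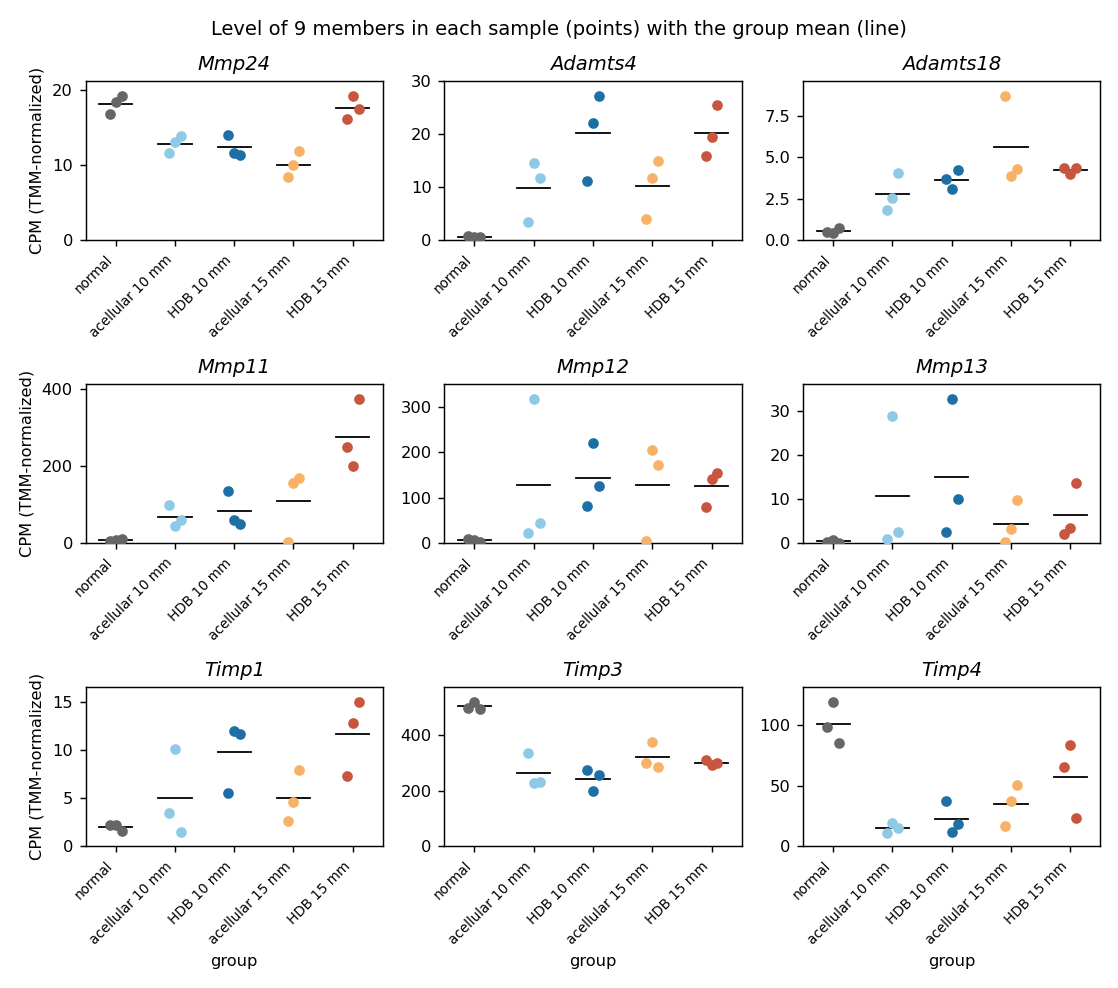
Level of 9 members (CPM, linear axes from 0) in each sample, with a point for each of the 3 replicates of a group and a line for the group mean. Mmp24 lies at 16.2 to 19.3 CPM in HDB 15 mm and at 16.9 to 19.2 CPM in normal skin, Adamts4 and Adamts18 separate wound from normal skin, and Mmp12 and Mmp13 vary widely within wound groups.

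The 4 inhibitors divided. Timp3 (chr10:86300412-86349505) stood at 497, 518 and 492 CPM in normal skin. It had 333, 226 and 231 CPM in acellular 10 mm and 273, 197 and 255 CPM in HDB 10 mm wounds. At 15 mm it had 298, 374 and 285 CPM in acellular and 311, 291 and 297 CPM in HDB wounds, so that no wound sample reached the lowest normal sample. The log2 fold changes were -0.93, -1.06, -0.65 and -0.74, with edgeR adjusted p-values of 0.00759, 0.00889, 0.0168 and 0.0357. The first 3 calls held in 6 of 6 fits with 1 sample left out, though the acellular 15 mm call was lost when its 2 groups were fitted alone (adjusted p = 0.0693), and the HDB 15 mm call in 0 of 6, with values of -0.77 to -0.72. Timp3 lies within Syn3, a synapsin gene on the opposite strand, and shares 1733 exon bases with it, and Syn3 was counted at 0.671 to 5.13 CPM.

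Timp4, an inhibitor known from heart, muscle and fat, stood at 98.0, 119 and 85.1 CPM in normal skin. It had 11.3, 19.2 and 15.0 CPM in acellular 10 mm and 37.5, 11.5 and 18.8 CPM in HDB 10 mm wounds. At 15 mm it had 17.1, 37.6 and 50.9 CPM in acellular and 65.5, 83.8 and 23.2 CPM in HDB wounds, all below the lowest normal sample. The log2 fold changes were -2.73, -2.15 and -1.51 in the first 3 groups (edgeR adjusted p = 0.00918, 0.0260 and 0.0432) and -0.81 in HDB 15 mm skin (adjusted p = 0.324, -1.18 to -0.43 over the alternatives). The acellular 10 mm call held in 6 of 6 fits with 1 sample left out and the next 2 in 1 and 1 of 6 (-2.71 to -1.83 and -1.88 to -1.18). The 8 skeletal muscle markers summed to 46304 to 55719 CPM in normal and to 617 to 33731 CPM in wound skin, and the 5 adipocyte markers to 2143 to 4501 and 308 to 4106 CPM. Their part in the Timp4 values was not tested. Timp2 was lower in acellular 10 mm skin, at 229, 243 and 188 CPM against 365, 874 and 777 CPM (log2 fold change -1.61, edgeR adjusted p = 0.0209), and lost the call without acellular 10 mm replicate 1 or 3 or normal replicate 2 or 3 (-1.91 to -1.39).

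Timp1, the inducible inhibitor of inflammation and repair, moved the other way, and it was picked after its values were seen. Normal skin had 2.18, 2.21 and 1.61 CPM. HDB skin had 5.56, 12.0 and 11.7 CPM at 10 mm and 7.31, 12.8 and 15.0 CPM at 15 mm, above normal skin in 6 of 6 samples (log2 fold changes 2.28 and 2.55, edgeR adjusted p = 0.0379 and 0.0404). Acellular skin had 3.42, 10.1 and 1.46 CPM at 10 mm and 2.61, 4.61 and 7.96 CPM at 15 mm, with log2 fold changes of 1.32 and 1.34 that did not pass (adjusted p = 0.139 and 0.117). Over the alternatives these values ranged over 0.29 to 1.76 and 0.85 to 1.65. The HDB calls held in 1 and 0 of 6 fits with 1 sample left out (2.12 to 2.58 and 2.33 to 2.79). When HDB was compared with acellular skin itself across the 2 sizes, Timp1 differed by 1.09 (standard error 0.423) and did not pass (edgeR adjusted p = 0.275).

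Summed per transcript length, the 4 Timp genes reached 432, 673 and 618 TPM in the normal samples and the 22 Mmp genes 430, 873 and 790 TPM. The ratio of summed Timp to summed Mmp transcripts there was 1.01, 0.771 and 0.782. In acellular wounds it was 0.416, 0.271 and 0.378 at 10 mm and 0.719, 0.335 and 0.258 at 15 mm, and in HDB wounds 0.290, 0.229 and 0.327 at 10 mm and 0.262, 0.279 and 0.177 at 15 mm. The 12 wound samples thus lay between 0.177 and 0.719, below the 3 normal samples, and the highest of them was acellular 15 mm replicate 1. With the longest transcript of each gene the ratio was 0.308 to 1.12 in wound and 1.13 to 1.39 in normal skin, so that the order of the groups was kept while the level depended on the length used. These sums were made after single members had been seen and carry no test, and protein amounts and activity were not measured.

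**Figure D4:**
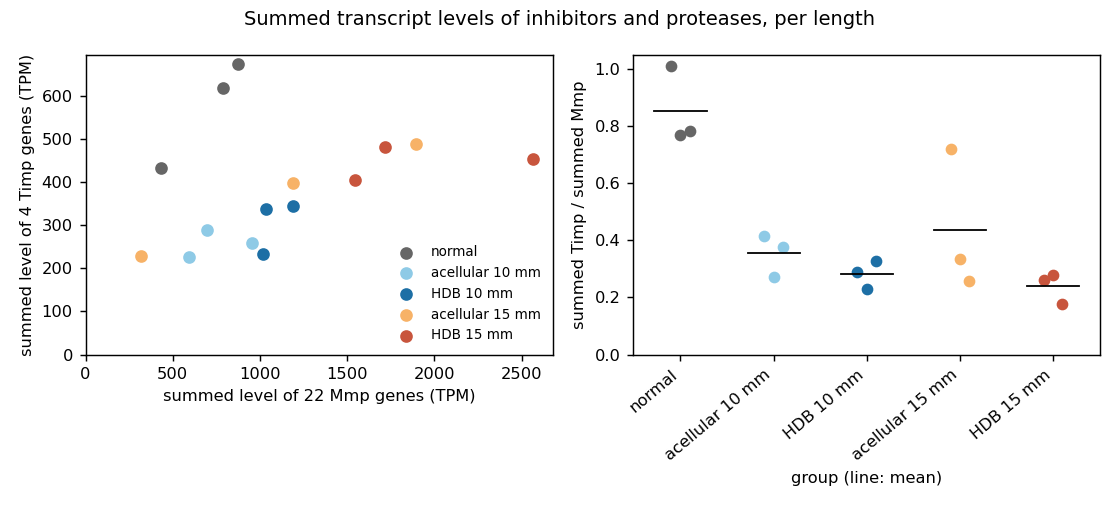
Left, summed level of the 4 Timp genes (vertical, TPM) against that of the 22 Mmp genes (horizontal, TPM) in each of the 15 samples, with colours for the 5 groups. Right, their ratio in each sample, with a line for the group mean. Normal samples lie between 0.771 and 1.01 and wound samples between 0.177 and 0.719.

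HDB skin was then set against acellular skin of the same wound size, which asks what the MSC-laden beads added to beads alone. At 10 mm 0 of 40 members were called by edgeR, beside 0% of all genes, with 2 members and 3.53% of all genes at an unadjusted p under 0.05 and 0 members and 0.111% of all genes called by DESeq2. At 15 mm 1 member, Mmp24, was higher and 0 were lower, beside 0.579% and 2.35% of all genes. When both sizes were averaged, edgeR called 0 members and 0% of all genes, with 11 members and 15.8% of all genes at an unadjusted p under 0.05 and 1 member and 2.76% of all genes called by DESeq2. For the difference in effect between the sizes it called 0 members and 0% of all genes, with 2 members and 13.4% of all genes at an unadjusted p under 0.05, and DESeq2 called 1 member and 5.65% of all genes. Both DESeq2 calls were Mmp24.

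Most members lay on the same side. When both sizes were averaged, 34 of 40 members had a positive log2 fold change in favour of HDB, with a median of 0.42, while 48.8% of all genes did, with a median of -0.01. These were 17 of 17 MMPs (median 0.51), 3 of 4 TIMPs (0.60) and 14 of 19 ADAMTS genes (0.24). Without acellular 15 mm replicate 1 the count was 30 of 41 with a median of 0.26, and without replicate 3 of that group 35 of 41 with a median of 0.69. At 10 mm 31 of 40 were positive (median 0.37), with medians of 0.22 without acellular 10 mm replicate 3 and 0.57 without replicate 2. At 15 mm the count was 32 of 40 (0.55), with medians of 0.19 without acellular 15 mm replicate 1 and 1.01 without replicate 3. The effect was more positive at 15 mm for 24 of 40 members (median 0.09), a balance that turned without acellular 15 mm replicate 1 (12 of 41, -0.21) and without acellular 10 mm replicate 2 (14 of 40, -0.14). The 6 fibroblast markers, all tested, moved with these values, summing to 539 to 853 CPM in acellular 10 mm, 1108 to 1586 CPM in HDB 10 mm, 585 to 1750 CPM in acellular 15 mm and 1362 to 2640 CPM in HDB 15 mm skin. The 8 macrophage markers summed to 70.0 to 198, 136 to 206, 83.6 to 270 and 221 to 406 CPM in the same order. With both sizes averaged all 6 fibroblast markers (median log2 fold change 0.84), 8 of 8 macrophage (0.70), 6 of 6 endothelial (0.56), 5 of 5 adipocyte (0.81), 8 of 8 skeletal muscle (0.57) and 4 of 5 mast cell markers (1.13) were above 0 in favour of HDB. The muscle markers differed by size, with 1 of 8 above 0 at 10 mm (median -0.08) and 8 of 8 at 15 mm (1.29). Of the hair shaft markers, 8 of 8 were below 0 (-5.04), and their sums were 15.6 to 451 CPM in acellular 10 mm, 18.9 to 25.0 in HDB 10 mm, 22.8 to 8724 in acellular 15 mm and 61.1 to 355 in HDB 15 mm skin. Keratinocyte, neutrophil and bone lists had medians of -0.04 (basal and wound), 0.30 (suprabasal), 0.62 and 0.33. EdgeR called none of these markers, with 23 of 65 at an unadjusted p under 0.05 and 9 called by DESeq2. The part of these cell types in the members' values was not tested.

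Mmp24 (Entrez 17391, chr2:155775342-155818367), the membrane-type MT5-MMP known mainly from the nervous system, was the member called at 15 mm. It stood at 8.39, 9.98 and 11.9 CPM in acellular 15 mm and at 16.2, 19.3 and 17.5 CPM in HDB 15 mm skin, while normal skin had 16.9, 18.4 and 19.2 CPM. The lowest HDB sample was above the highest acellular sample, and the HDB and normal samples overlapped. The log2 fold change of HDB over acellular skin was 0.81 (standard error 0.156, edgeR adjusted p = 0.0261), a 1.75-fold difference. At 10 mm acellular skin had 11.7, 13.1 and 13.9 CPM and HDB skin 14.0, 11.7 and 11.4 CPM, with a log2 fold change of -0.06. The difference between the sizes was 0.87 (standard error 0.220), with an adjusted p of 0.143 in edgeR, which did not pass, and of 0.00428 in DESeq2. The 15 mm call was lost without acellular 15 mm replicate 1 (0.69, edgeR adjusted p = 0.0507) and without HDB 15 mm replicate 1, 2 or 3 (0.87, 0.74 and 0.82, adjusted p = 0.0671, 0.0759 and 0.131). It was also lost when only the 2 groups compared were fitted (0.80, adjusted p = 0.464), and over the alternatives the adjusted p ranged from 1.38e-05 to 0.464. Against normal skin Mmp24 was lower in acellular 10 mm, HDB 10 mm and acellular 15 mm wounds, with log2 fold changes of -0.49, -0.56 and -0.85 (edgeR adjusted p = 0.0433, 0.0391 and 0.00479, held in 0, 1 and 6 of 6 fits with 1 sample left out, the last lost with its 2 groups fitted alone at 0.0614). The annotation places 637 exon bases of Mmp24 over BC029722 on the opposite strand, a gene not analysed here.

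Some members separated the groups without passing the test, and those outside the naming rule are named here after their values were seen. At 10 mm 6 of 40 members had every HDB sample above every acellular sample, as had 4.53% of all genes, and at 15 mm 6 of 40, beside 8.55% of all genes. No member had every HDB sample below, whereas 6.47% of all genes had at 10 mm, 11.7% at 15 mm and 0.527% at both. 0 members were above at both sizes, beside 0.254% of all genes. The 10 mm genes were Mmp2, Mmp14, Mmp16, Adamts12, Mmp27 and Adamts2, with log2 fold changes of 0.67, 0.51, 1.25, 1.18, 0.78 and 0.93. Mmp2 had 159, 127 and 97.2 CPM in acellular and 239, 174 and 197 CPM in HDB 10 mm wounds, and its activator Mmp14 had 236, 266 and 217 CPM against 392, 310 and 319 CPM. At 15 mm Mmp2 had 63.5, 214 and 358 CPM in acellular and 297, 465 and 411 CPM in HDB wounds, where acellular replicate 3 lay within the HDB range. The 15 mm genes were Mmp24 and Adamts16, Adamts1, Adamts15, Adamts4 and Mmp11, the latter with log2 fold changes of 2.24, 0.32, 0.89, 0.99 and 1.33, in place of which 2.34, 0.29, 0.61, 0.60 and 0.77 were found without acellular 15 mm replicate 1. Leaving out replicate 3 of that group gave 2.29, 0.26, 1.18, 1.37 and 1.78. Adamts16, the largest of these values, was at 0.117 to 1.13 CPM, with 3, 2 and 3 counts in the acellular and 7, 11 and 20 counts in the HDB samples.

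Averaged over the sizes, 10 members picked after their values were seen had log2 fold changes of 1.15 (Mmp3), 1.09 (Timp1), 1.06 (Mmp23), 1.01 (Adamts4), 0.99 (Mmp27), 0.81 (Adamts2), 0.80 (Mmp11), 0.78 (Mmp2), 0.72 (Mmp14) and 0.56 (Timp2) in favour of HDB. Their edgeR adjusted p-values lay between 0.261 and 0.491, so that none passed. Without acellular 15 mm replicate 1 the values were 0.95, 0.93, 0.92, 0.81, 0.77, 0.64, 0.51, 0.56, 0.55 and 0.39 in the same order, and without replicate 3 of that group 1.61, 1.33, 1.40, 1.20, 1.41, 1.30, 1.02, 1.08, 0.97 and 0.80. Inhibitors (Timp1, Timp2) and proteases stand side by side in this list. Without acellular 15 mm replicate 3, 6 members were called at 15 mm, namely Adamts2, Mmp14, Mmp23, Mmp24, Mmp27 and Mmp3, all of them higher, beside 3.37% of all genes higher and 11.6% lower in that fit. Without acellular 15 mm replicate 1 edgeR called 0 members, beside 0.161% higher and 0.818% lower.

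**Figure D5:**
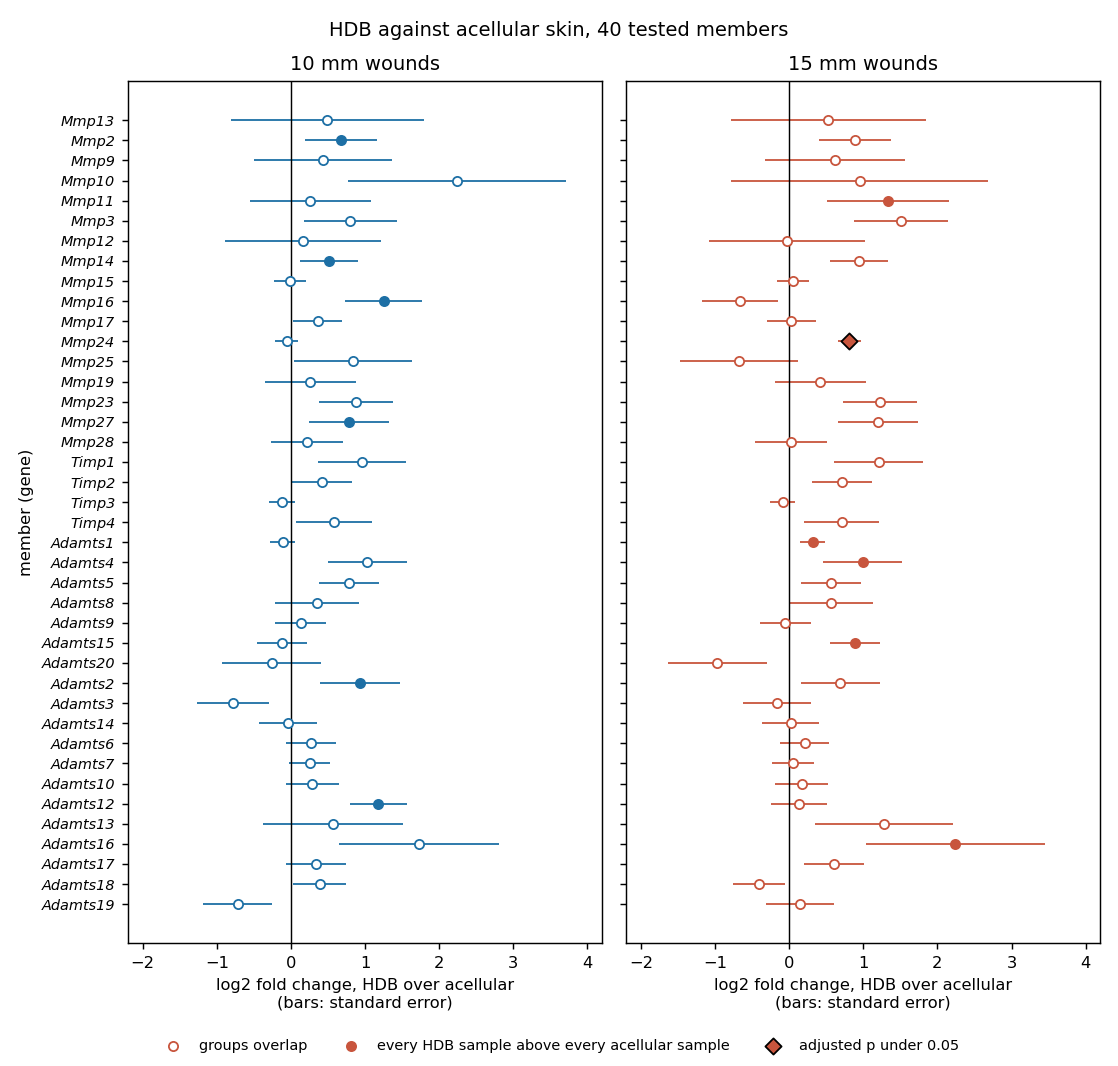
Log2 fold change of HDB over acellular skin (horizontal, bars show the standard error) for the 40 tested members (vertical) in 10 mm wounds (left) and 15 mm wounds (right). Filled points mark members with every HDB sample above every acellular sample, and the diamond marks Mmp24, the member called (0.81 at 15 mm). At 10 mm 31 and at 15 mm 32 of the 40 points lie right of 0.

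The other genes of the pathway were read from 6 lists, of plasminogen activation, other activators and inhibitors, membrane ADAMs, ADAMTS-like proteins, procollagen C-proteinases and matrix substrates. Between HDB and acellular skin edgeR called 0 of them in the 4 comparisons, and with both sizes averaged 0, 2, 1, 0, 1 and 4 were at an unadjusted p under 0.05 in the order of the lists and 0, 0, 1, 0, 1 and 0 were called by DESeq2, beside 15.8% and 2.76% of all genes. Against normal skin Adam12, a membrane protease of regenerating mesenchyme, was higher in the 4 wound groups, with log2 fold changes of 1.63, 2.92, 2.43 and 2.94 (edgeR adjusted p = 0.0133, 0.00270, 0.00311 and 0.00589). In the 4 wound groups 9.77%, 6.10%, 17.6% and 2.67% of all genes were called higher and 10.6%, 6.23%, 12.6% and 2.51% lower, against which the list counts stand. Of the 8 membrane ADAMs, 1, 2, 2 and 1 were higher and 2, 1, 0 and 0 lower. The 6 ADAMTS-like genes, which encode matrix proteins without a protease domain, gave 4, 3, 2 and 2 lower and 0, 0, 0 and 0 higher calls. Among them Adamtsl4, which binds fibrillin, had log2 fold changes of -1.77, -1.94, -2.09 and -1.57 (edgeR adjusted p = 0.0122, 0.0148, 0.00486 and 0.0383). Of the 5 procollagen C-proteinases and their enhancers, 3, 3, 3 and 1 were lower and 0, 0, 0 and 0 higher, and the enhancer Pcolce2 had log2 fold changes of -3.36, -3.00 and -2.76 in the first 3 groups.

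Reck, a membrane-anchored inhibitor of several MMPs, was called lower in both acellular groups, with log2 fold changes of -1.65 at 10 mm and -1.29 at 15 mm (edgeR adjusted p = 0.0128 and 0.0212), the latter not called without acellular 15 mm replicate 1 (-1.01, adjusted p = 0.0599). In HDB skin Reck was not called, at 22.8, 12.4 and 22.2 CPM at 10 mm and 21.9, 23.9 and 22.2 CPM at 15 mm. These values too lay below the 29.7, 53.4 and 46.8 CPM of normal skin. Beside the same shares of all genes, of the 6 tested genes among the other activators and inhibitors 0, 0, 1 and 0 were higher and 3, 2, 3 and 0 lower in the 4 wound groups. Of the 7 tested genes of plasminogen activation, 0, 0, 1 and 1 were higher and 1, 0, 0 and 0 lower. The tissue plasminogen activator gene Plat was higher at 15 mm, with log2 fold changes of 0.83 and 0.89, and the urokinase gene Plau was lower in acellular 10 mm skin (-0.80). Of the 10 matrix substrates, 0, 0, 1 and 0 were higher and 2, 0, 0 and 0 lower. Col1a1 and Col1a2, the chains of collagen I, were lower in acellular 10 mm skin, with log2 fold changes of -1.98 and -1.85 (edgeR adjusted p = 0.0429 and 0.0483), where 4 of 6 fibroblast markers were lower too (median -1.55). Versican (Vcan), a substrate of Adamts4, Adamts9 and Adamts15, was higher in acellular 15 mm skin (log2 fold change 1.86, edgeR adjusted p = 0.0263), but not without acellular 15 mm replicate 1 (1.37, adjusted p = 0.0965).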

How the data were processed

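Reads from 15 mouse skin samples were aligned and counted by the authors, and the submitters' processing notes name HISAT2 2.0.4, Bowtie2 2.2.5, RSEM 1.2.12 and GRCm38.p6. The deposited table holds estimated counts (expected counts) per gene, not normalized, with 1 column for each sample. They were rounded to whole numbers. The test was edgeR's quasi-likelihood test (edgeR 4.0.16 under R 4.3.3), after TMM normalization and filterByExpr, on the 15369 genes that passed. A single model held the means of the 5 groups, which were taken from the sample titles. P-values were adjusted by Benjamini-Hochberg over all genes tested at a threshold of 0.05, and the members were then read out. A standard error is the size of the log2 fold change over the square root of F. CPM came from the counts, and TPM from the counts and the median (alternatively the longest) GENCODE transcript length per gene.

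Members, role groups and further lists were chosen with earlier results of these data known. Named by rule were 17 members, namely those called between HDB and acellular skin or in at least 3 of 4 comparisons with normal skin, the most abundant of each role group, and any without overlap between HDB and acellular skin at both sizes. Other members named were picked after their values were seen. Alternatives were DESeq2 1.42.0, no filter (18834 genes), a mean of at least 50 counts (13257 genes), a model of the compared groups alone, a block for the replicate number, omission of single replicates, removal of each sample's trend with transcript length, and a fold threshold of at least 1 on the log2 scale. Deviations of same-numbered samples of the 15 mm groups had correlations of 0.397, 0.167 and 0.183. Those of acellular 10 mm and HDB 15 mm skin had 0.489, 0.242 and -0.342, and correlations between different numbers were not computed. These values therefore cannot show that numbers pair samples, and no source says what a number marks. The main test used no pairing, and the block set the same replicate effects for all 5 groups. The fits were tested on simulated data.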

Additional observations from a re-analysis of the deposited data

How the results depend on the processing

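The count of members called between HDB and acellular skin at 15 mm (1) became 0 when the model held the compared groups alone and 0 with a fold threshold of at least 1 on the log2 scale, and ranged from 0 to 6 when single replicates were left out (0% to 14.9% of all genes). With both sizes averaged and for the difference between sizes it was 0 and became 1 with DESeq2. Against normal skin, leaving out single replicates gave 4 to 11 members in acellular 10 mm (13 with all samples), 9 to 19 in acellular 15 mm (14), 3 to 11 in HDB 10 mm (9) and 2 to 8 in HDB 15 mm skin (11), while 5.14% to 11.9%, 14.8% to 37.3%, 0.501% to 17.5% and 0.218% to 8.61% of all genes were called in these fits. A model of the compared groups alone gave 19 in acellular 10 mm, 12 in HDB 10 mm, 3 in acellular 15 mm and 16 in HDB 15 mm skin, beside 42.0%, 20.2%, 6.57% and 22.9% of all genes. DESeq2 gave 19, 16, 17 and 15 in that order, beside 32.9%, 24.8%, 40.2% and 18.6%, where edgeR with all samples called 20.3%, 12.3%, 30.2% and 5.18% of all genes. With the replicate block HDB 15 mm against normal skin gave 5 (1.54% of all genes), and also 5 with the length trend removed together with the block. Between HDB and acellular skin at 15 mm, where a pairing by number was not shown, the replicate block kept the call of Mmp24 (0.81, edgeR adjusted p = 0.0463) and, with 1 member called, changed no other call there. The 84 pairs of member and comparison recomputed one by one kept their sign, whereas over the 40 members the number above 0 moved with the setting, as in acellular 15 mm skin from 23 to 20 with the length trend removed. What moved these counts was not tested. Depth was similar in the 15 libraries, and members such as Mmp10 and Adamts16 rest on few counts.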
